A study of Mus musculus with 28 samples.

Results

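Collagens are the triple-helical proteins of the extracellular matrix, and their genes were followed here in C2C12, an immortalised mouse myoblast line, as the cells went from proliferation into muscle differentiation. The genes were the protein-coding rows of the count table whose symbol has the form Col, number, a, number, with counts that sum to at least 50 over the RNA-seq libraries. Of 44 such rows among 49089 genes, 33 met that sum. They comprised 10 fibrillar, 7 network-forming, 5 beaded-filament, 5 fibril-associated and 3 transmembrane collagens, and 1 each of the anchoring-fibril collagen (Col7a1), a multiplexin (Col18a1) and Col26a1, which was left outside these classes. The member nearest the minimum was Col6a4, with 69 counts, and the nearest rows below it were Col15a1 and Col20a1, with 49 counts each.

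A collagen molecule is a trimer of alpha chains coiled around each other, and many types need chains from several genes, so the genes of a type are often studied together. Fibrillar collagens form the load-bearing fibrils of connective tissue, network collagens build sheets such as the basement membrane around each muscle fibre, and collagen VI forms beaded filaments that link that membrane to the surrounding matrix. Fibril-associated collagens sit on the surface of fibrils, and transmembrane collagens stay anchored in the cell's own membrane. In muscle much of this matrix is made by fibroblasts, while myoblasts and myotubes also make collagens.

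All samples were wild-type C2C12 cells per the labels. Growth medium (GM) held 20% fetal bovine serum, and differentiation medium (DM) held 3% horse serum. RNA-seq covered 18 libraries, 3 each in GM and after 12, 24, 48, 60 and 96 h in DM, while ATAC-seq (2 libraries a condition) and Hi-C (3 libraries a condition) covered GM and 60 h. The labels call the replicates biological without describing separate cultures, so each p-value is a measure of the scatter among these libraries alone, part of which may be technical. In bulk RNA, fewer cells of a type and less RNA per cell cannot be told apart.

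Library totals were 24.2 to 36.4 M counts, and collagen genes took 0.444% to 0.71% of them. The muscle label matched its markers: all 10 muscle genes of a fixed list were detected. Their summed level was 691 to 722 CPM (read counts scaled to the same round total in every library) in GM and 5963 to 6567 CPM at 96 h. Among them Myf5 fell, from a mean of 74.0 to 32.5 CPM, while the others rose. Of the 7 fibroblast markers, Thy1 and Tcf21 had no count in any library, and Lum stayed at or below a group mean of 0.164 CPM. The sum was 20.4 to 26.4 CPM in GM and 171 to 174 CPM at 96 h, when most of it was Dcn (mean 10.6 CPM in GM, 163 CPM at 96 h). Pdgfra, the highest of them in GM, fell from a mean of 12.5 to 9.60 CPM at 96 h. Dpt rose from 0.0349 to 0.383 CPM, and Pi16 was not called. Of 8 bone and cartilage markers, Ibsp and Acan had no count, and the sums were 23.0 to 28.1 CPM in GM and 19.2 to 21.5 CPM at 96 h. Most of these sums came from Runx2 (mean 13.4 CPM in GM, 9.12 CPM at 96 h) and Sox9 (11.4 and 10.8 CPM). The 5 satellite and reserve cell markers summed to 48.2 to 49.7 CPM in GM and 52.1 to 55.7 CPM at 96 h, a sum that covers opposite changes: Cd34 fell from 39.5 to 12.2 CPM, while Heyl (0.840 to 10.5 CPM), Sox8 (0.918 to 9.90 CPM) and Spry1 (1.43 to 13.3 CPM) rose. The 5 smooth muscle and pericyte markers summed to 492 to 497 CPM in GM and 1370 to 1576 CPM at 96 h, most of it Acta2. While Acta2 rose from a mean of 450 to 1413 CPM, Cnn1 fell from 1.78 to 0.125 CPM. Tagln was not called at 96 h (42.7 CPM in GM, 45.6 CPM at 96 h), and Myh11 and Rgs5 had too few counts to be tested. The sums were 29.7 to 33.5 CPM and 20.8 to 21.0 CPM for the 5 fat markers, 0.399 to 0.55 CPM and 0.724 to 0.879 CPM for the 4 endothelial markers, and 2.45 to 2.60 CPM and 0.773 to 1.09 CPM for the 4 blood markers. The part of these marker shifts in the collagen results was not tested.

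One library stood apart. In the third 24 h library, 60 of 7334 well-expressed genes lay at least 0.5 log2 units above both other 24 h libraries, against at most 2 such genes in any other library. The mean centred log2 level of those 60 genes, called the shift index below, was 0.60 in that library and -0.10 and -0.27 in the other 24 h libraries. It was also high in GM (0.27 to 0.43) and at 96 h (0.49 to 0.61), and low at 12 h (-0.44 to -0.34) and 60 h (-0.54 to -0.45), with 48 h between (-0.19 to 0.02). No collagen gene reached that 0.5 margin in the third 24 h library. The members highest above both other 24 h libraries were Col1a1 (0.29), Col6a3 (0.28) and Col12a1 (0.20).

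Levels below are CPM at the effective (TMM-scaled) library size, fold changes are log2 with the standard error (SE) of the fit over 3 libraries a group, and p-values come from the quasi-likelihood test of edgeR, adjusted by Benjamini-Hochberg over 15303 genes. A gene is said to rise or fall only at an adjusted p under 0.05. Transcript lengths were not used, so levels of different genes are not compared.

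The question of the time course was which collagens changed after the switch of medium. By the F test 29 of the 30 tested members differed from GM at some time, a share near the 86% of all tested genes, and the exception was Col4a6 (adjusted p = 0.109). At 12 h 6 members were higher and 4 lower than in GM, close to the 17.8% and 17.2% of all genes. At 24 h 14 were higher and 2 lower, beside 30.2% and 30.6%; without the third 24 h library 4 were lower, and without the second or the third GM library 1 was. At 48 h 19 were higher and 4 lower, beside 32.5% and 32.8%. At 60 h 22 were higher and 4 lower, beside 33.1% and 32.2%. Alternative fits gave 17 to 22 higher and 4 to 6 lower at 60 h, with 17 when the shift index was a covariate. At 96 h 20 were higher and 5 lower, beside 34.8% and 34.1%. From 48 h on, most members were thus higher and few were lower, where all genes were split about evenly.

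The median member changed by -0.02 at 12 h, 0.40 at 24 h, 0.50 at 48 h, 0.82 at 60 h and 0.53 at 96 h, while the median of all genes stayed between -0.00055 and 0.0081. Over the 5 times 21 members were higher at 1 or more and lower at none (38.7% of all genes), and 4 were the reverse (35.6%). Another 4 moved both ways (14%), and 1 was never called (11.8%). At all of 48, 60 and 96 h 16 members were higher, beside 23.9% of all genes. Col6a3, Col18a1, Col7a1 and Col17a1 were lower at all 3 of these times, beside 23.6%. The mean was highest at 60 h for 10 members and at 96 h for 10. It was highest at 12, 24 and 48 h for 3 members each, and in GM for 1, Col6a3.

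The filter on low counts kept 30 members and left out Col26a1, Col9a3 and Col6a4. Col10a1, Col23a1, Col25a1 and Col28a1 were under its count minimum in all 3 GM libraries and passed through later groups. A member that enters in this way had to differ, so these 4 do not bear on the direction of the rest. They are among the higher members at 60 h and 96 h, as are 2 of them at 48 h and 1 at 24 h. All 4 are among the 21 that were higher at some time and lower at none, and they are counted in the medians. Col23a1 and Col25a1 are also among the 16.

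**Figure D1:**
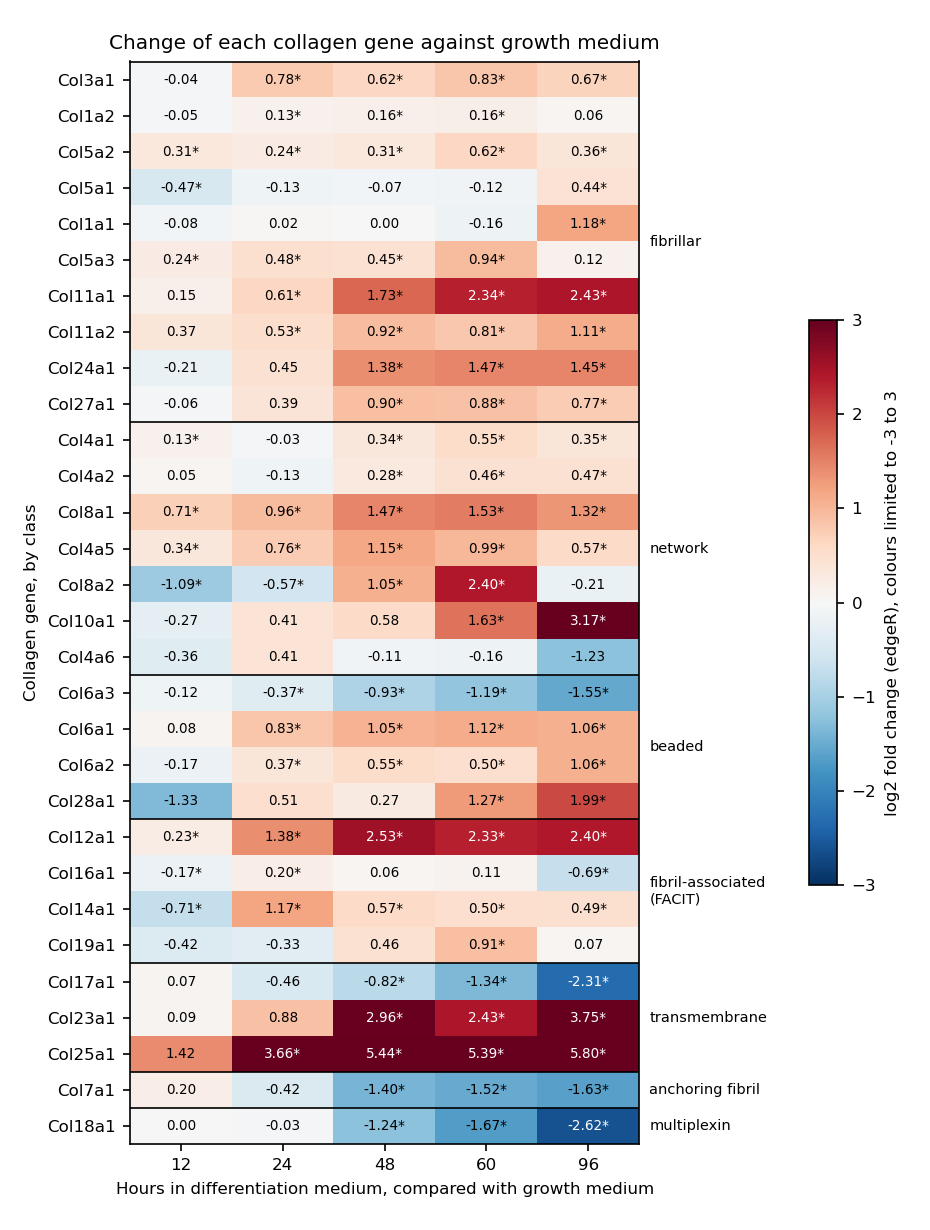
Log2 fold change of the 30 tested collagen genes against growth medium at 12 to 96 h in differentiation medium, ordered by class; red is higher, blue is lower, and an asterisk marks an adjusted p under 0.05 (edgeR quasi-likelihood test). Red cells fill most classes from 24 or 48 h, while Col6a3, Col17a1, Col7a1 and Col18a1 turn blue; the fitted changes of Col25a1 rest on a single count in growth medium.

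The bases upstream of the start site are shown for 5 members that moved in different ways and whose window lies outside other annotated genes: Col3a1 and Col6a1, which rose, Col1a2, whose group means changed little, Col8a2, which dipped, peaked and returned, and Col18a1, which fell. Each is the 250 bases before a RefSeq start site (build GRCm38.p6), written 5′ to 3′ on the gene's strand. They lie at chr1:45311288-45311537 (plus strand) for Col3a1, chr10:76726045-76726294 (minus strand) for Col6a1, chr6:4505368-4505617 (plus strand) for Col1a2, chr4:126286544-126286793 (plus strand) for Col8a2 and chr10:77166531-77166780 (minus strand) for Col18a1. Capitals mark matches, on either strand, to the E-box CANNTG, the TATA box TATAAA, the CCAAT box CCAAT and the GC box GGGCGG.
Col3a1: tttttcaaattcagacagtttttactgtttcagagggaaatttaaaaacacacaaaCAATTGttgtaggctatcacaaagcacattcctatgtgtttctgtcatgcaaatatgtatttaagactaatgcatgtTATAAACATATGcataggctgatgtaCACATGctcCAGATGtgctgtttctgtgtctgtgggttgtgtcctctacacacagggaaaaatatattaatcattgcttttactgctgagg
Col6a1: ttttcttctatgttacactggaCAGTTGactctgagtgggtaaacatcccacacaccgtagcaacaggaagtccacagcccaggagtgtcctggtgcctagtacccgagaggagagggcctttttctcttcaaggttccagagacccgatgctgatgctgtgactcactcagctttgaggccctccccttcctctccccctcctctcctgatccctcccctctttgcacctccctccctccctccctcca
Col1a2: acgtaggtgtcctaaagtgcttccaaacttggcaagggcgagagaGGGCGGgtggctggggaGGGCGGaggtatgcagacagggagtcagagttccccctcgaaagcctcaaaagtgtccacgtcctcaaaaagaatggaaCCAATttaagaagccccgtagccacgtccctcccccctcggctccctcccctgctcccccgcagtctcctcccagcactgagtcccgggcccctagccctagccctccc
Col8a2: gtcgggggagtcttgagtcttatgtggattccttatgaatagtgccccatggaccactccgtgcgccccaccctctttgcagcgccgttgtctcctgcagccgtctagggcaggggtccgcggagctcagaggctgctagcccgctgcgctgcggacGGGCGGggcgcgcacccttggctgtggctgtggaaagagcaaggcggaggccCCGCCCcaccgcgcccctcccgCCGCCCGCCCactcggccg
Col18a1: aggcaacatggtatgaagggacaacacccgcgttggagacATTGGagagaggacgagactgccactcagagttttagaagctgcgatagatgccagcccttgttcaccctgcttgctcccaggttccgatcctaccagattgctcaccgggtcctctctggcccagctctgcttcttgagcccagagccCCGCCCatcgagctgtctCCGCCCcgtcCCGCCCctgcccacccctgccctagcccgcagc

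The windows differ in these letters. Col3a1 holds a TATA box 117 to 112 bases before the start and 4 E-boxes, and 35.2% of its bases are G or C. Col6a1 holds 1 E-box, 228 bases upstream, and no match to the others. Col1a2 holds a CCAAT box 109 to 105 bases upstream and 2 GC boxes. Col8a2, at 70.0% G or C, holds 4 GC boxes, of which the nearest pair to the start share 2 bases, and Col18a1 holds 3 GC boxes and a CCAAT box.

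The RefSeq promoter set used here held 29 such windows for 27 of the members. It held none for Col1a1, Col5a2, Col9a3, Col12a1, Col14a1 and Col26a1. A GC box was found in 65.5% of the 29, against 32.7% of 32851 windows of the same length over all genes. An E-box was found in 44.8% against 66.2%, and CAGCTG, an E-box form that is counted within CANNTG too, in 13.8% against 13.0%. The shares were 41.4% against 33.8% for the CCAAT box and 13.8% against 12.4% for TATAAA. A match is a description of letters and not evidence of a bound factor, and a window without one shows only that those letters are not in it.

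The fibrillar class had a higher summed level from 24 h on. Its summed level was 3114 to 3170 CPM in GM, 2983 to 3193 CPM at 12 h and 4270 to 4340 CPM at 24 h, and it then stayed between 4059 and 4685 CPM. In these sums long transcripts weigh more. Of the 10 fibrillar members 8 were higher than GM at each of 48, 60 and 96 h, and none was called lower in the main fit. At 60 h Col1a1 and Col5a1 were called lower in some alternative fits, given below. At 12 h 2 were higher (Col5a2 and Col5a3) and 1 was lower (Col5a1). The call of Col5a3, a change of 0.24 ± 0.09 (adjusted p = 0.0422), was lost when any of 5 libraries was left out: the first or second of GM, the first or second of 12 h, or the first of 60 h (adjusted p = 0.0501 to 0.110). It was also lost with the shift covariate (adjusted p = 0.337).

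Col3a1 encodes the single chain of collagen III, the fibrillar collagen of soft and healing tissue (chr1:45311538-45349706). Its levels were 1374, 1394 and 1452 CPM in GM, 1384, 1403 and 1307 at 12 h, and 2408, 2449 and 2384 at 24 h. They were 2193, 2124 and 2148 CPM at 48 h, 2472, 2468 and 2551 at 60 h, and 2247, 2227 and 2259 at 96 h. All libraries from 24 h on lay above all of GM and 12 h, so the step came between 12 and 24 h. The change against GM was -0.04 ± 0.04 at 12 h (adjusted p = 0.367) and 0.78 ± 0.04 at 24 h (adjusted p = 6.64e-14). Its upstream window, shown above, is the only 1 of the 5 printed that holds a TATA box.

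Col1a1 and Col1a2 encode the 2 chains of collagen I, the main collagen of tendon, skin and bone. Col1a2 lay at 876, 861 and 863 CPM in GM, 855, 867 and 784 at 12 h, 948, 898 and 994 at 24 h, 990, 960 and 949 at 48 h, 958, 983 and 972 at 60 h, and 865, 903 and 934 at 96 h. These changes were small: it rose by 0.16 ± 0.04 at 48 h and at 60 h, and at 96 h differed from GM by 0.06 ± 0.04 (adjusted p = 0.275). Col1a1 (chr11:94936224-94953042) lay at 74.0, 65.5 and 70.0 CPM in GM, 69.7, 65.8 and 61.9 at 12 h, 70.5, 56.7 and 86.1 at 24 h, 69.1, 71.6 and 68.8 at 48 h, 60.1, 66.9 and 60.6 at 60 h, and 152, 145 and 179 at 96 h. All 96 h libraries lay above every earlier one. The rise was 1.18 ± 0.10 against GM (adjusted p = 8.32e-10) and 1.34 ± 0.10 against 60 h (adjusted p = 4.86e-10), and no earlier time was called against GM. Its difference at 60 h, -0.16 ± 0.10 (adjusted p = 0.183), was called in the fit without the filter on low counts (adjusted p = 0.00316) and in the fit of these 2 groups alone (adjusted p = 0.0181), and when the second or the third 24 h library was left out (adjusted p = 0.0489 and 0.04997).

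The ratio of the 2 collagen I chains moved late. As log2 of Col1a1 over Col1a2 relative to the GM mean, with transcript length not corrected, it was -0.08 to 0.07 in GM, -0.37 to -0.24 at 60 h, and 0.99 to 1.25 at 96 h. Between 60 and 96 h the shift index also went from its lowest group to its highest. With that index as a covariate, Col1a1 rose by 0.70 from 60 to 96 h (adjusted p = 0.00137) in place of 1.34. Against GM, where the index differs less, its 96 h rise with the covariate was 1.05 (adjusted p = 2.34e-11). In the same fit Col1a1 lay above GM at 12, 48 and 60 h, by 0.35, 0.25 and 0.35. The adjusted p-values of that test were 0.0302, 0.0139 and 0.0217. Without the covariate the 12 h and 60 h differences were below 0. Within groups the index varied most at 24 h (0.60 in the third library, -0.10 and -0.27 in the others). The slope of the covariate thus rests mainly on that library, where Col1a1 was the highest of its group, and these values extrapolate from it.

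Col5a1, Col5a2 and Col5a3 encode the chains of collagen V, which sits inside collagen I fibrils and limits their width. Col5a2 lay at 517, 543 and 525 CPM in GM, 663, 654 and 645 at 12 h, 624, 638 and 608 at 24 h, 650, 642 and 668 at 48 h, 789, 818 and 828 at 60 h, and 686, 668 and 679 at 96 h. It was above every GM library at each time, with a rise of 0.62 ± 0.04 at 60 h (adjusted p = 2.78e-12). Col5a1, the partner chain, fell at 12 h, from 230 to 250 CPM down to 161 to 180 CPM (-0.47 ± 0.06, adjusted p = 2.45e-06), and rose at 96 h, to between 306 and 342 CPM (0.44 ± 0.06, adjusted p = 8.16e-07). The log2 ratio of Col5a1 to Col5a2 was -0.85 to -0.73 relative to GM at 12 h and -0.74 to -0.72 at 60 h, with no overlap with GM (-0.09 to 0.10), and was 0.02 to 0.16 at 96 h. At 60 h Col5a1 differed from GM by -0.12 ± 0.06 (adjusted p = 0.0909). It was called lower without the filter on low counts (adjusted p = 0.0196) and in the fit of these 2 groups alone (adjusted p = 0.0251). DESeq2 also called it lower (adjusted p = 0.0494), as did 11 fits that each left out 1 library (adjusted p = 0.0211 to 0.0408). Col5a1's rise from 60 to 96 h was 0.56 ± 0.06 (adjusted p = 8.17e-08), and 0.26 with the shift covariate (adjusted p = 0.0741). Col5a3 peaked at 60 h, with a rise of 0.94 ± 0.09, and at 96 h differed from GM by 0.12 ± 0.09 (adjusted p = 0.244).

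The fibrillar genes with low counts all rose. Col11a1 and Col11a2 encode chains of collagen XI, known from cartilage. Col11a1 went from 0.445 to 0.764 CPM in GM to between 2.93 and 3.73 CPM at 96 h, a rise of 2.43 ± 0.21 (adjusted p = 8.74e-10). Col11a2 rose by 1.11 ± 0.20, Col24a1 by 1.45 ± 0.23 and Col27a1 by 0.77 ± 0.20 at the same time. Of the cartilage markers of the fixed list, Acan had no count in any library and Sox9 was 11.4 CPM in GM and 10.8 CPM at 96 h.

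**Figure D2:**
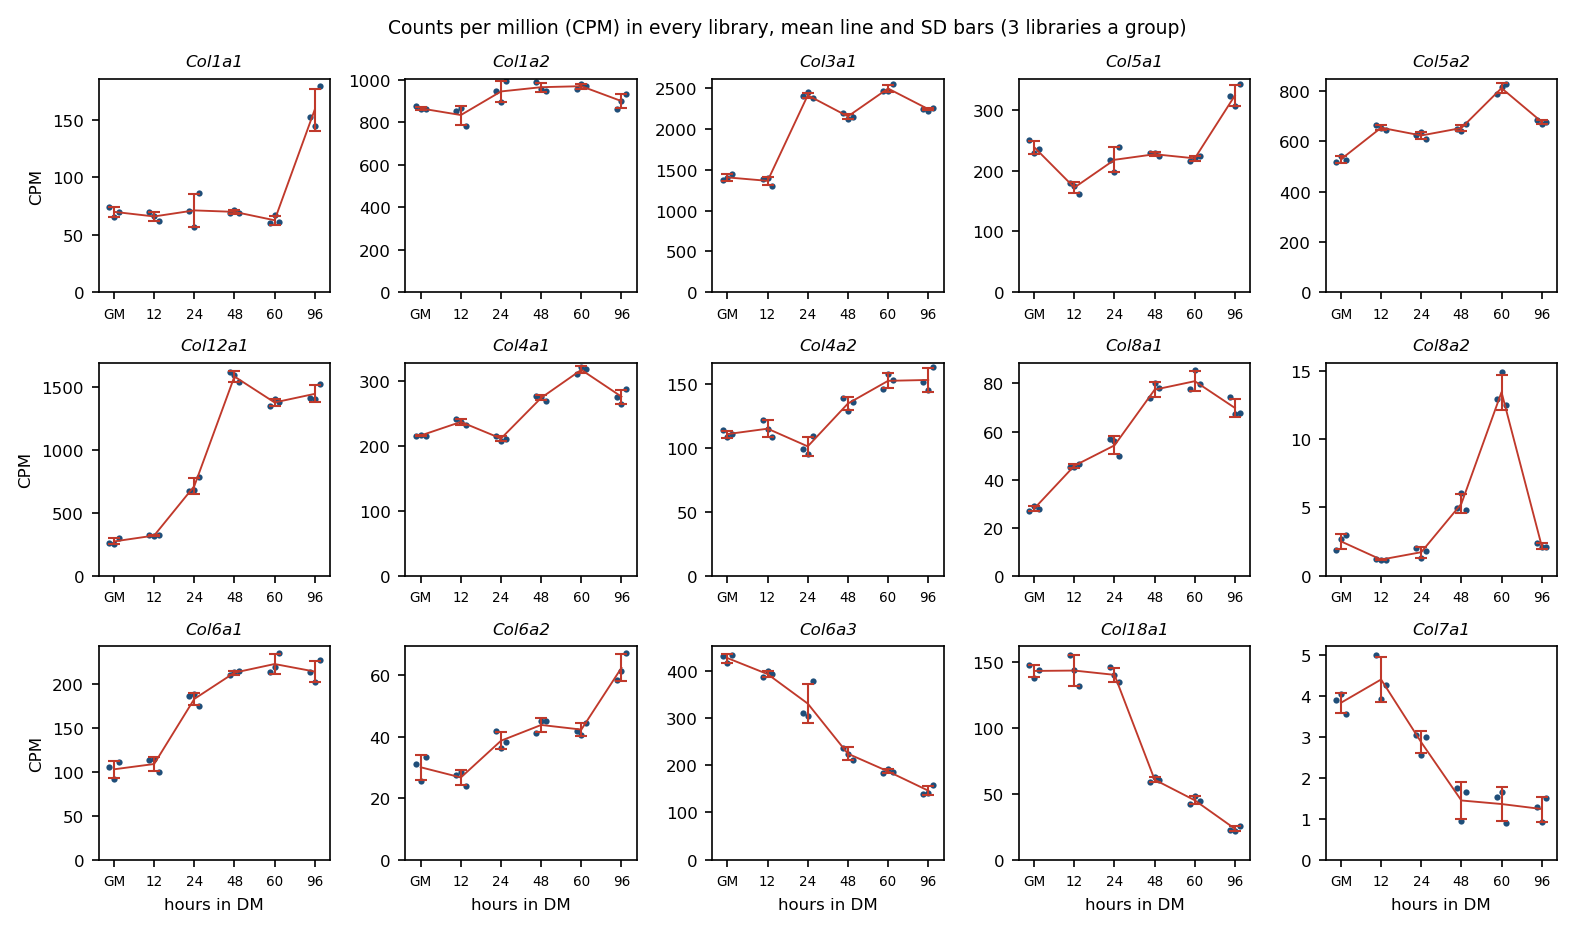
CPM of 15 collagen genes in each of the 18 libraries (dots), with the group mean (line) and SD (bars, n = 3), over growth medium (GM) and hours in differentiation medium (DM); each panel has its own axis from 0. Col3a1 steps up at 24 h, Col12a1 climbs to 48 h, Col1a1 rises at 96 h, Col8a2 peaks at 60 h, and Col6a3, Col18a1 and Col7a1 fall.

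Among network collagens no member was lower than GM from 48 h on. The class sum went from 377 to 379 CPM in GM to between 587 and 620 CPM at 60 h, and was 510 to 551 CPM at 96 h. Of 7 tested members, 5 were higher at 48 h, 6 at 60 h and 5 at 96 h.

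Col4a1 and Col4a2 encode the common chains of collagen IV, the sheet-forming collagen of basement membranes. Col4a1 was 216, 217 and 216 CPM in GM, 241, 238 and 233 at 12 h, 215, 209 and 212 at 24 h, 277, 276 and 270 at 48 h, 312, 322 and 319 at 60 h, and 276, 266 and 288 at 96 h. Col4a2 was 114, 108 and 111 CPM in GM, 122, 115 and 109 at 12 h, 99.1, 95.3 and 110 at 24 h, 139, 129 and 136 at 48 h, 146, 158 and 154 at 60 h, and 152, 145 and 163 at 96 h. In both genes every library from 48 h on lay above every GM and 24 h library. Col4a1 was already called higher at 12 h (0.13 ± 0.04, adjusted p = 0.00827), and at 24 h it was not. At 60 h the rises were 0.55 ± 0.04 (adjusted p = 2.59e-11) and 0.46 ± 0.06 (adjusted p = 3.52e-07).

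These 2 genes stand head to head. The RefSeq start of Col4a2 on the plus strand lies at 11312805 on chromosome 8. The Col4a1 start used here, on the minus strand, lies at 11312826, so transcripts from these 2 starts overlap by 22 bases. The RefSeq span of Col4a1 reaches further, to 11312889, so the full spans share more bases. Their log2 count ratio stayed within -0.15 and 0.17 of the GM mean in all 18 libraries. It was 0.06 to 0.13 at 60 h and -0.15 to -0.09 at 96 h, in both cases outside the GM range of -0.04 to 0.04. Col4a5, on the X chromosome, a chain of specialised basement membranes, rose earlier and more, by 0.34 ± 0.05 at 12 h and 1.15 ± 0.05 at 48 h (adjusted p = 2.99e-14), and 0.57 ± 0.05 at 96 h. Its neighbour Col4a6 had 3 to 21 counts a library and was called at no time. Its 96 h difference of -1.23 had an adjusted p of 0.0502, and was called in 9 of 23 alternative fits (adjusted p 0.0153 to 0.308 over all of them).

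Col8a1 and Col8a2 encode collagen VIII, a short-chain network collagen of vessels and the cornea. Col8a1 was 26.8, 29.1 and 28.0 CPM in GM, 45.4, 45.2 and 46.7 at 12 h, 56.9, 55.9 and 50.0 at 24 h, 74.1, 80.0 and 78.1 at 48 h, 77.5, 85.7 and 79.6 at 60 h, and 74.2, 67.4 and 67.8 at 96 h. It rose at every time, by 0.71 ± 0.06 at 12 h (adjusted p = 7.17e-09) and 1.53 ± 0.06 at 60 h (adjusted p = 1.14e-15), the largest 12 h rise among the called members.

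Col8a2, shown as its partner in the trimer, took another course. It was 1.89, 2.72 and 2.96 CPM in GM, 1.24, 1.18 and 1.15 at 12 h, 2.07, 1.27 and 1.85 at 24 h, 4.99, 6.05 and 4.79 at 48 h, 12.9, 14.9 and 12.5 at 60 h, and 2.44, 2.08 and 2.07 at 96 h. The 60 h libraries lay above all others, and the 96 h libraries lay within the GM range. It fell by 1.09 at 12 h (SE 0.19, adjusted p = 0.000128), rose by 2.40 ± 0.15 at 60 h (adjusted p = 7.07e-12) and dropped by 2.61 from 60 to 96 h (SE 0.15, adjusted p = 7.93e-12). With the shift covariate the last step was -2.83 (adjusted p = 2.25e-05). The log2 ratio of Col8a1 to Col8a2 was 1.69 to 1.84 at 12 h, -0.96 to -0.81 at 60 h and 1.43 to 1.53 at 96 h relative to the GM mean (-0.25 to 0.33 in GM). The third network gene of the short-chain kind, Col10a1, known from growth plate cartilage, had 12 counts over the GM libraries and 109 at 96 h, a 9.21-fold ratio of scaled counts with a 95% interval of 5.06 to 18.4 (exact binomial, counting error only).

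Collagen VI, the beaded-filament collagen of the fibre surface, is built from a trimer of the Col6a1, Col6a2 and Col6a3 chains, and these genes moved in opposite directions. Col6a1 was 105, 92.1 and 111 CPM in GM, 113, 114 and 99.0 at 12 h, 186, 188 and 174 at 24 h, 210, 213 and 214 at 48 h, 213, 218 and 235 at 60 h, and 213, 201 and 226 at 96 h. Col6a2 was 31.2, 25.5 and 33.3 CPM in GM, 27.7, 28.4 and 24.0 at 12 h, 41.7, 36.1 and 38.1 at 24 h, 41.3, 45.0 and 45.1 at 48 h, 41.9, 40.4 and 44.6 at 60 h, and 58.5, 61.4 and 67.2 at 96 h. Both lay above every GM library from 24 h on, and at 96 h both had risen by 1.06, with SEs of 0.06 and 0.08 (adjusted p = 3.04e-12 and 2.36e-10).

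Col6a3, which encodes the largest chain of the trimer, was 433, 417 and 434 CPM in GM, 387, 401 and 394 at 12 h, 311, 305 and 378 at 24 h, 238, 225 and 211 at 48 h, 183, 192 and 187 at 60 h, and 140, 141 and 158 at 96 h. Every group from 12 h on lay below GM with no overlap, and each group from 24 h on lay below the group before it. The change was -0.12 ± 0.07 at 12 h (adjusted p = 0.167), -0.37 ± 0.07 at 24 h (adjusted p = 4.78e-05), -0.93 ± 0.07 at 48 h (adjusted p = 5.94e-11), -1.19 ± 0.07 at 60 h (adjusted p = 9.89e-13) and -1.55 ± 0.07 at 96 h (adjusted p = 6.58e-15). The third 24 h library was the highest of its group, and without it the 24 h fall was -0.46 (adjusted p = 2.14e-07). With the shift covariate the 60 h fall was -0.87 (adjusted p = 6.26e-09), and the step from 48 to 60 h, -0.26 ± 0.07 (adjusted p = 0.00545), was no longer called.

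Within each library the log2 ratio of Col6a3 to Col6a1 was -0.10 to 0.11 around the GM mean, -1.37 to -0.95 at 24 h, -2.08 to -1.88 at 48 h, -2.39 to -2.25 at 60 h and -2.67 to -2.58 at 96 h. At 96 h the mean ratio was thus 6.10-fold lower than in GM, and from 24 h on no library overlapped GM. The ratio of Col6a1 to Col6a2 moved less, to between 0.57 and 0.66 at 60 h, and at 96 h it was -0.06 to 0.09 and overlapped GM (-0.04 to 0.08). Col6a2's rise between those times was 0.56 ± 0.08 (adjusted p = 7.75e-06). The sum of the beaded class, 535 to 578 CPM in GM and 405 to 452 CPM at 96 h, hides these opposite courses. Col28a1, a collagen known from nerve, had 15 counts in GM and 60 at 96 h, a 4.06-fold ratio of scaled counts (95% interval 2.27 to 7.69).

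**Figure D3:**
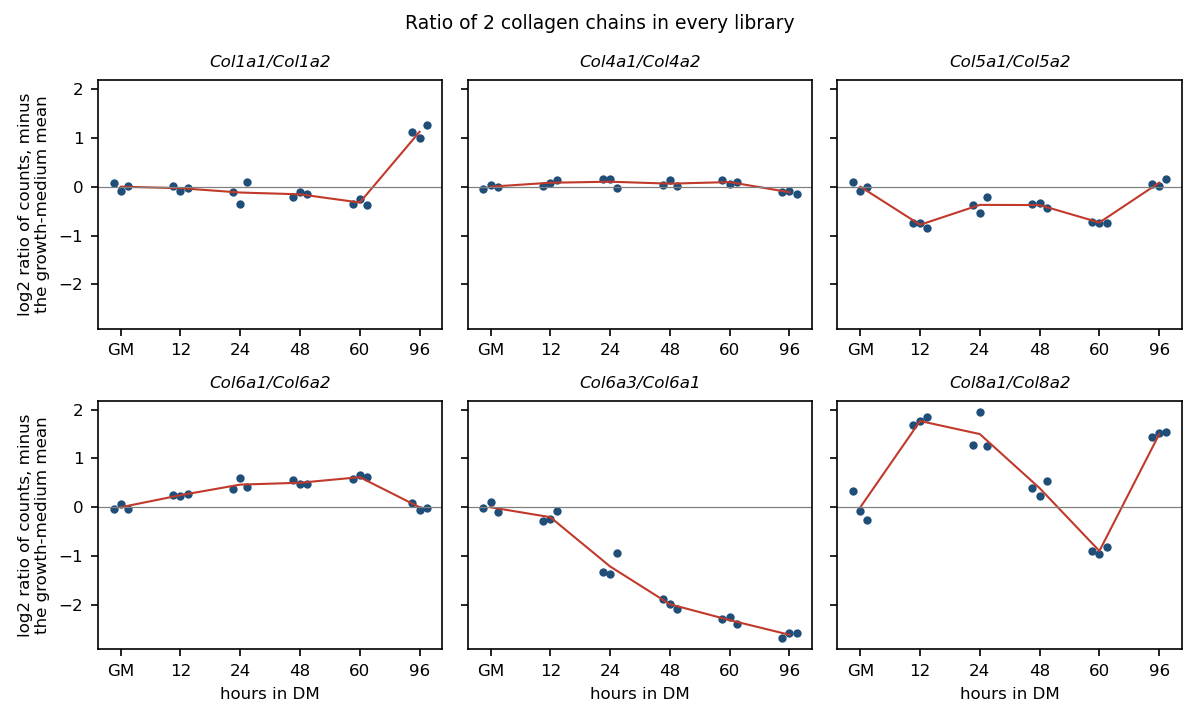
Log2 ratio of the counts of 2 chains of the same collagen in each of the 18 libraries (dots, 3 a group), minus its mean in growth medium, with the group mean as a line. Col6a3/Col6a1 falls to -2.61 at 96 h, Col1a1/Col1a2 rises to 1.12 at 96 h, Col8a1/Col8a2 swings from 1.77 at 12 h to -0.89 at 60 h, and Col4a1/Col4a2 stays near 0.

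Fibril-associated collagens were led by Col12a1, the collagen on the surface of collagen I fibrils in tendon and muscle fascia (chr9:79598987-79721141). It was 265, 256 and 301 CPM in GM, 325, 315 and 322 at 12 h, 676, 683 and 784 at 24 h, 1620, 1598 and 1541 at 48 h, 1350, 1406 and 1384 at 60 h, and 1413, 1406 and 1526 at 96 h. Each group lay above GM with no overlap. The rise was 0.23 ± 0.06 at 12 h (adjusted p = 0.00434), 1.38 ± 0.06 at 24 h (adjusted p = 1.70e-14) and 2.53 ± 0.06 at 48 h (adjusted p = 7.84e-19), and 2.40 ± 0.06 at 96 h. Leaving out the third 24 h library, the highest of its group, gave 1.33 at 24 h. The class sum, 278 to 323 CPM in GM and 1421 to 1542 CPM at 96 h, follows this gene.

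Col14a1, a relative of Col12a1 on interstitial fibrils, was 2.08, 2.14 and 1.66 CPM in GM, 1.24, 1.04 and 1.31 at 12 h, 4.44, 4.36 and 4.49 at 24 h, 3.08, 2.83 and 2.81 at 48 h, 2.95, 2.67 and 2.69 at 60 h, and 2.47, 3.06 and 2.71 at 96 h. It fell by 0.71 at 12 h (SE 0.15, adjusted p = 0.00105), peaked at 24 h (1.17 ± 0.13, adjusted p = 1.16e-07) and was still higher at 96 h (0.49 ± 0.14, adjusted p = 0.00419). Col16a1, a fibril-associated collagen of skin and cartilage, was 20.6, 18.9 and 19.6 CPM in GM, 18.7, 18.1 and 15.6 at 12 h, 23.0, 22.7 and 22.0 at 24 h, 20.1, 20.6 and 20.8 at 48 h, 22.1, 21.8 and 19.9 at 60 h, and 12.3, 11.8 and 12.6 at 96 h. Its 96 h libraries lay below all others, with a fall of -0.69 ± 0.07 (adjusted p = 1.12e-08). Col19a1, known from the differentiation of muscle cells in the embryo, had 4 to 22 counts a library and was called only at 60 h (0.91 ± 0.39, adjusted p = 0.0456), a call lost in 18 of 24 alternative fits. These were DESeq2 (adjusted p = 0.0870), no filter (0.0724), the replicate block (0.0571), the shift covariate (0.707) and the fits without any of 14 libraries (0.0501 to 0.200). Col9a3, a cartilage collagen, was not tested and had 1 to 14 counts a library.

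**Figure D4:**
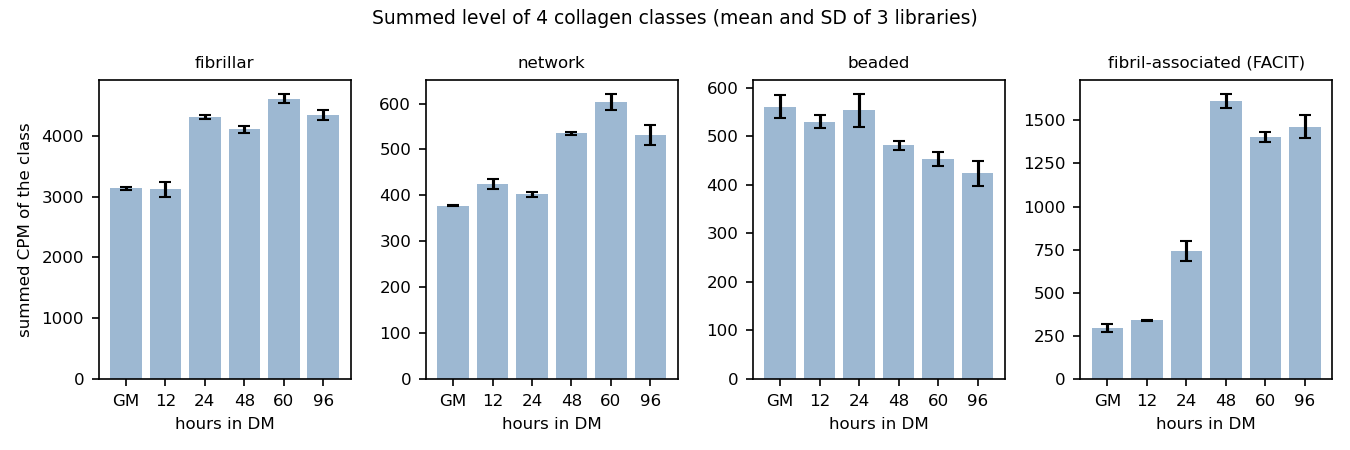
Summed CPM of the fibrillar, network, beaded and fibril-associated collagens (bars, mean of 3 libraries, with SD), over growth medium (GM) and hours in differentiation medium (DM). The fibrillar sum steps up at 24 h, the network sum peaks at 60 h, the fibril-associated sum climbs to 48 h, and the beaded sum falls from 561 to 423 CPM.

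Members that fell included collagens of epithelial and vascular basement membranes. Col18a1, the multiplexin whose end fragment is known as endostatin (chr10:77052178-77166530), was 148, 139 and 144 CPM in GM, 155, 144 and 132 at 12 h, 146, 140 and 135 at 24 h, 59.1, 63.1 and 60.2 at 48 h, 42.1, 48.4 and 44.8 at 60 h, and 22.8, 22.1 and 25.4 at 96 h. The GM, 12 h and 24 h libraries overlapped, and all later libraries lay below them. Its change was -0.03 ± 0.06 at 24 h (adjusted p = 0.680), -1.24 ± 0.06 at 48 h (adjusted p = 1.42e-13) and -2.62 ± 0.07 at 96 h (adjusted p = 4.63e-19), a 6.13-fold fall. At 24 h, when Col12a1 had risen 2.61-fold, Col18a1 differed from GM by less than the spread of its libraries.

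Col7a1, which forms the anchoring fibrils that tie the epidermis to the dermis, was 3.89, 4.03 and 3.56 CPM in GM, 5.00, 3.93 and 4.26 at 12 h, 3.04, 2.55 and 3.00 at 24 h, 1.75, 0.930 and 1.65 at 48 h, 1.54, 1.64 and 0.887 at 60 h, and 1.28, 0.908 and 1.51 at 96 h. From 24 h on every library lay below GM. It was lower by -1.40 ± 0.22 at 48 h (adjusted p = 7.34e-06) and by -1.63 ± 0.22 at 96 h (adjusted p = 9.18e-07).

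The 3 transmembrane collagens split in direction at low levels. Col17a1, the hemidesmosome collagen of skin, was 1.48, 2.17 and 1.89 CPM in GM, 2.00, 2.06 and 1.80 at 12 h, 1.10, 1.59 and 1.35 at 24 h, 1.02, 1.07 and 1.07 at 48 h, 0.623, 0.840 and 0.723 at 60 h, and 0.461, 0.202 and 0.457 at 96 h. From 48 h on no library overlapped GM, and the fall at 96 h was -2.31 ± 0.26 (adjusted p = 5.88e-08). Col23a1 was 0.185, 0.0917 and 0.0665 CPM in GM, 0.198, 0 and 0.164 at 12 h, 0.134, 0.283 and 0.198 at 24 h, 0.635, 1.43 and 0.619 at 48 h, 0.623, 0.535 and 0.690 at 60 h, and 1.48, 1.71 and 1.48 at 96 h.

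Col25a1 encodes a transmembrane collagen made by muscle that motor axons need to enter it. Its counts were 0, 1 and 0 in GM, 0, 3 and 1 at 12 h, 6, 7 and 5 at 24 h, 23, 18 and 14 at 48 h, 18, 17 and 16 at 60 h, and 31, 24 and 20 at 96 h, so every library from 24 h on lay above every GM library. The ratio of scaled counts at 96 h to GM was 76.0, with a 95% interval of 13.2 to 3043 (exact binomial, counting error only), so its size is poorly set. The corresponding ratio for Col23a1, with 10 counts in GM and 138 at 96 h, was 14.0 (7.38 to 29.8).

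The steps between neighbouring times show when the members moved. Members that passed the filter only through later groups are counted in, and their rises do not bear on the direction of the rest. They are Col25a1 and Col28a1 from 12 to 24 h, Col23a1 and Col25a1 from 24 to 48 h, and Col10a1 and Col23a1 from 60 to 96 h. From 12 to 24 h 15 rose and 5 fell, beside 27.8% and 26.5% of all genes. From 24 to 48 h 12 rose and 5 fell, beside 17.5% and 14.8%. The rise of Col27a1 in that step (adjusted p = 0.0485) was lost in 23 of 24 alternative fits. From 48 to 60 h 7 rose and 4 fell, beside 15.8% and 11.3%, and without the first 60 h library 2 fell. Col4a2's rise there (adjusted p = 0.0233) was lost in 14 fits that each left out 1 library. From 60 to 96 h 5 rose (Col1a1, Col5a1, Col6a2, Col10a1 and Col23a1) and 11 fell, beside 22.6% and 24.6%. The groups of this last step also differ most in the shift index, whose part in it was not tested. With the index as a covariate 2 members rose (Col1a1 by 0.70 and Col6a2 by 0.56, adjusted p = 0.0341) and 7 fell. Calls can be lost there with little change in size: Col23a1 changed by 1.27 in place of 1.33 (adjusted p = 0.504).

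Collagen chains must be hydroxylated and folded in the endoplasmic reticulum before export. Of 17 tested genes of folding and hydroxylation, 10 were higher and 5 lower at 60 h, beside 33.1% and 32.2% of all genes. At 96 h 6 were higher and 5 lower, near the background of 34.8% and 34.1%. Between these times none rose and 11 fell, beside 22.6% and 24.6%. Fkbp14, a prolyl isomerase, rose by 1.59 ± 0.06 at 60 h (17.7 to 53.2 CPM), P4ha1, the prolyl 4-hydroxylase subunit that stabilises the triple helix, by 1.27 ± 0.05 (146 to 353 CPM), and Plod2, a lysyl hydroxylase, by 0.96 ± 0.06 (64.4 to 125 CPM). P4ha3, another prolyl 4-hydroxylase subunit, fell by 1.55 (SE 0.17, 6.90 to 2.36 CPM), Fkbp10 by 0.34 and Plod3 by 0.24. At 96 h the same rises were 1.21, 1.05 and 0.75, and P4ha3 was at -1.76, Fkbp10 at -0.72 and Crtap at -0.41.

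Of 12 tested genes of export, propeptide removal and crosslinking, 5 were higher and 4 lower at 60 h, and 6 were higher and 5 lower at 96 h. These counts lie near the all-gene shares of 33.1% and 32.2% at 60 h, and somewhat above those of 34.8% and 34.1% at 96 h. Lox, a lysyl oxidase that crosslinks fibrils, rose by 0.85 ± 0.05 at 60 h (255 to 462 CPM), and Tll1, a procollagen C-proteinase, by 2.78 ± 0.16 at 96 h (0.930 to 6.39 CPM). At 96 h Adamts14 and Adamts2, procollagen N-proteinases, rose by 1.18 ± 0.09 and 0.88 ± 0.07. Pcolce2, an enhancer of the C-proteinases, fell by 2.57 at 96 h (SE 0.06, 66.6 to 11.2 CPM). Loxl4 and Loxl3, relatives of Lox, fell by 2.06 and 1.19 at that time.

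Of 7 tested collagen receptors 5 were higher and 1 lower at both 60 and 96 h, beside 33.1% and 32.2% of all genes at 60 h and 34.8% and 34.1% at 96 h. Itga11 and Itga10, the alpha subunits of collagen-binding integrins, rose by 4.40 ± 0.19 (0.388 to 8.32 CPM) and 4.13 ± 0.18 (0.618 to 10.8 CPM) at 96 h. Ddr1, a receptor tyrosine kinase for collagen, rose by 0.92 ± 0.06. Ddr2, its relative for fibrillar collagens, fell by 0.68 (SE 0.04, 209 to 130 CPM). The changes named in the last 3 paragraphs were called at adjusted p of at most 0.000484 by the same fit.

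Open chromatin was compared at the start sites of the 27 members in the promoter set, which is on the files' build. A deposited peak lay within 500 bases of a start in 22 members in GM and 23 at 60 h, beside 94.6% and 95% of tested genes. Col10a1 had 1 in the 60 h list alone, with a −log10 q of 1.87, and Col17a1, Col28a1, Col4a6 and Col6a4 had none in either. These members had between 69 (Col6a4, which was not tested) and 692 counts (Col17a1) over all libraries. The tested genes were not matched to the members in level. All 22 members with a peak in GM had one at 60 h too. At a −log10 q of at least 5 the counts were 22 and 20, since the 60 h peaks of Col10a1 (1.87), Col11a1 (4.20) and Col8a2 (4.35) were lost. There is 1 list per condition, so no test between conditions was possible, and the fold over local background that the authors' file gives describes a peak within its list only.

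In the GM list the authors' fold was 4.36 at Col6a1, 3.89 at the upstream start of Col18a1 (77166530), 2.61 at its second start (77113705), 2.52 at Col6a3, 2.53 at Col8a2 and 3.50 at Col7a1. In the 60 h list it was 4.14 at Col6a1, 4.17 and 2.35 at the Col18a1 starts, 2.70 at Col6a3, 1.73 at Col8a2 and 2.20 at Col7a1. In both lists Col6a1 thus stood above Col6a3, and the upstream Col18a1 start above the second. At Col25a1, with a summed count of 1 in GM, the GM list held a start-site peak of fold 2.24 (−log10 q 7.13). The starts of Col4a1 and Col4a2 lay under 1 shared peak in each list, of fold 2.84 in GM and 3.00 at 60 h.

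Over whole gene spans the lists differed in number in some members. Col4a6 held 17 peaks in GM and 28 at 60 h, with 9708 and 16405 bases covered. Col24a1 held 27 and 36, and Col5a1 53 and 40. The numbers were equal in others, such as Col12a1 (14 and 14), Col5a2 (11 and 11) and Col18a1 (26 and 26). These counts were not made over all genes, so no background stands beside them. The lists held 181622 and 189516 peaks in all.

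Hi-C loops, pairs of 25 kb anchors, were deposited with the condition in which each was called and no value. Of the 27 members, 22 had an anchor over a start site, beside 78.2% of tested genes. Their 55 loops were called in GM only (25), at 60 h only (20) or in both (10). All deposited loops numbered 32587, 24031 and 7114 in these classes. A loop called in GM only was found for 15 members, at 60 h only for 13 and in both for 7. The shares of tested genes were 60%, 49.4% and 20.5%. Col3a1 had 8, of which 5 were GM only. Col8a1 had 2, both at 60 h only, and Col4a1, Col4a2, Col7a1, Col16a1 and Col17a1 had none. A domain boundary bin overlapped Col6a3, Col19a1, Col26a1 and Col27a1 in both conditions and no other member. The share of all genes with such a bin was not computed.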

How the data were processed

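Read counts per gene were deposited as whole numbers for the 18 RNA-seq libraries, not scaled between libraries. Per the submitters' processing notes, STAR, RSEM 1.3.0 and DESeq2 were used with build mm10. The libraries were strand-specific per the labels. The step that gave whole counts is not stated in the sources used. Peak lists from ATAC-seq were deposited with the authors' fold (a ratio) over background and −log10 q for each peak, and MACS2 2.2.7 is named in the submitters' processing notes. Whether reads were pooled over libraries is not given there. The deposited boundary file holds a score per 40 kb bin, of which only the position was used.

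All libraries were fitted together in edgeR 4.0.16 (R 4.3.3): filterByExpr by group, TMM scaling, group as the only factor, 12 residual degrees of freedom, called at an adjusted p under 0.05. An SE is the size of the log2 fold change over the square root of F. On simulated data for 60 h against GM (15012 genes) the test recovered 98.5% of 67 genes changed 1.5-fold, and 100% of 67 and 66 genes changed 2-fold and 4-fold. The changed genes left out those with the lowest counts, were far fewer than those called in the data, and had a set spread. The recovery thus does not cover the low-count members. Replicate libraries differed by more than sampling noise, with a chi-square over its degrees of freedom of 5.06 to 53.2. Intervals cover counting error only. The members, classes, lists and tests were chosen with earlier results of these data known.

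Values in every library are given for up to 3 members a class with the highest mean CPM, and for the 3 largest rises and falls at 96 h at a mean log2 CPM of at least 3. Col8a2 and Col5a1 were added after their values were seen. From the lists of related genes, at most 3 called genes each way were named at 60 and 96 h. Alternatives were other scaling, filter, tool and libraries, a replicate block and the shift covariate. Promoter sequences are from RefSeq (GRCm38.p6), and protein sequences and domain files were not used here.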

Additional observations from a re-analysis of the deposited data

How the results depend on the processing

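Over 9 contrasts of 30 members, only the covariate for the shift of the third 24 h library changed the sign of a difference called with or without it. With RLE scaling 268 of 270 values stayed on their side of the threshold in the same direction. Without the filter 261 of 270 did, with DESeq2 257 of 265 and with 2-group fits 231 of 246. When each library was left out in turn, 4710 of 4860 did. With the covariate 240 of 270 did, and 3 changed sign: Col1a1 at 12 h (0.35) and 60 h (0.35) against GM, and Col8a1 from 60 to 96 h (0.015). The Col1a1 differences were called only with the covariate, and that of Col8a1 only without it (adjusted p = 0.946 with it). The slope of this covariate rests mainly on the third 24 h library. In that fit 17 members were higher at 60 h against GM (22 without it), and 2 were lower from 48 to 60 h (4 without it). From 60 to 96 h 2 were higher (5 without it) and 7 lower (11 without it). The cause was not tested. Leaving out 1 library gave 1 to 4 members lower at 24 h against GM (1 without the second or the third GM library, 4 without the third 24 h library) and 2 to 4 lower from 48 to 60 h (2 without the first 60 h library).

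Replicate numbers did not pair the samples: correlations of deviations were -0.181 to 0.154 for the same number and -0.161 to 0.181 for others, and 2 of 18 libraries correlated best with their own number. With a replicate block 267 of 270 calls were the same, with 21 members higher at 60 h. DESeq2 gave 20 higher at that time. The fit without the filter and the 2-group fit each gave 21 higher and 6 lower. Start-site peaks were found in 22 and 20 members at −log10 q of at least 5, and in 22 and 24 within 1000 bases. With anchors within 10 kb, 24 members had a loop.

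Limits: 7 tested members fell under the filter's minimum in some library, so their changes are imprecise. Transcript lengths were not used, reads shared by overlapping genes were not examined, and peaks and loops have 1 list per condition.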
